A study of Mus musculus with 7 samples.

Results

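The hepatocyte lineage transcription factors examined here are the nuclear receptors Hnf4a and Nr5a2, the forkhead factors Foxa1, Foxa2 and Foxa3, the C/EBP factors Cebpa and Cebpb, the cut-homeodomain factor Onecut1 and the homeobox factor Prox1. They were chosen by gene symbol, and each of the 9 was found by name among the 19963 targets of the count table that was deposited after probe quality control. All 9 also lay in the filtered table, from which 13095 genes were tested. The measurement was spatial: GeoMx whole transcriptome probes were hybridised to fixed liver sections, their barcodes were cleaved off with UV light inside chosen areas, and the collected barcodes were sequenced. Each of the 6 areas was stained for Albumin, in paraffin-embedded liver of mice 24 weeks old, with 3 areas per diet. The diets are called NCD and FFD as in the labels, and the segment table marks every region WT, on 1 slide. Sex and strain are not given in the sources used here.

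These proteins make up the core regulatory network of the hepatocyte. FOXA factors open closed chromatin at liver enhancers early in development, and HNF4A, C/EBP alpha, ONECUT1 and NR5A2 then bind many of the same enhancers and the genes of one another. In the adult liver the network keeps genes of plasma protein secretion, glucose output, bile acid synthesis and lipoprotein assembly active. C/EBP beta shares the binding sequence of C/EBP alpha and is best known for the acute phase response, and PROX1 acts largely as a repressor beside HNF4A and NR5A2.

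Total counts over the tested genes ranged from 2069101 to 3491372 per region. The 7 tested hepatocyte markers were above the detection limit in each of the 6 regions, the limit being 2 times the level of the 210 negative probes of that region. Regions NCD 1 and NCD 2 were far more alike than any other pair. Their chi-square per degree of freedom over 13095 genes was 1.28, against 5.13 to 7.89 in the other same-diet pairs, where 1 is the value of sampling noise alone. Their centres lay 2258 slide units apart, against 7158.4 to 18704 in the other same-diet pairs. Per the design text each diet had 3 mice, but no label gives the mouse of a region, so whether these regions came from 1 mouse cannot be told from the labels. If they did, p-values below are too small, and values with NCD 1 and NCD 2 summed are given where that ends a call. In FFD 1 and FFD 2 the deposited counts exceeded the deduplicated reads 1.20-fold and 1.51-fold, against 0.996 to 1.01 elsewhere, and values with FFD 3 standing alone for FFD are given where a call or the size depends on it. In that setting FFD has 1 region, so the spread comes from the NCD regions and FFD is assumed to vary like them.

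Hnf4a and Foxa3 fell in FFD, and none of the 9 factors rose (edgeR quasi-likelihood test, Benjamini-Hochberg adjusted p under 0.05 over all 13095 genes). Among all tested genes 11.1% were called lower and 5.94% higher, and with 9 members nothing particular to them is read from 2 calls. At an unadjusted p under 0.05, 3 of the 9 passed (Hnf4a, Foxa3 and Foxa2), against 33.2% of all tested genes. Foxa2 was higher in each FFD region than in any NCD region without passing the test. Onecut1 differed more among the NCD regions than between the diet means. The other 5 factors, Cebpa, Cebpb, Foxa1, Prox1 and Nr5a2, had overlapping diets and changes between -0.11 and 0.09 on the log2 scale. Diets did not overlap for 2 members that were lower and 1 that was higher, against 24.5% and 12.2% of all tested genes. The median log2 change was -0.03 over the 9 factors and -0.11 over all tested genes. Both calls were near the threshold and were lost in most of the alternative settings, as given beside each gene.

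**Figure D1:**
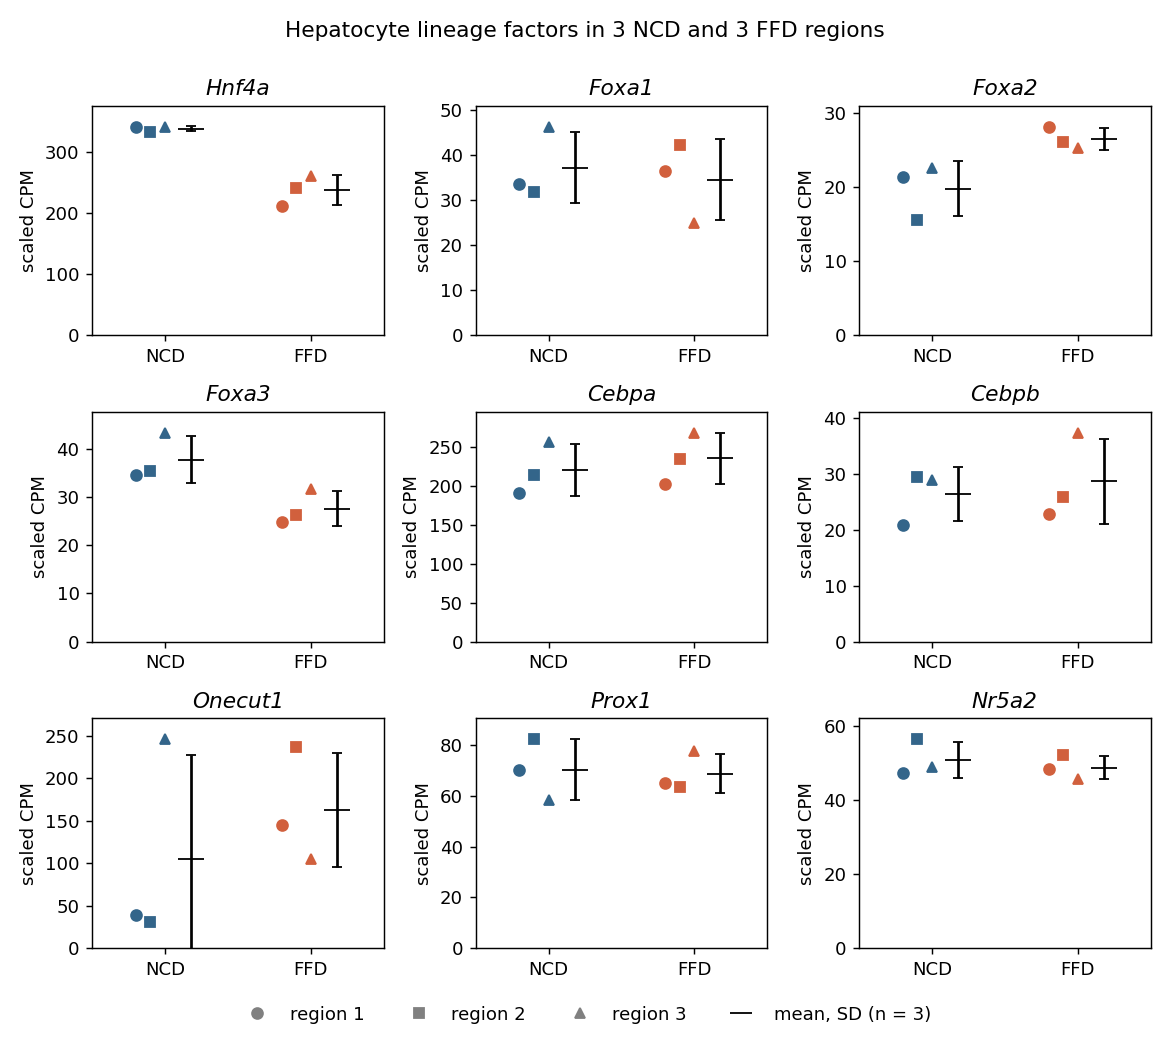
Level of each of the 9 factors in CPM on upper quartile scaled libraries, one panel per gene, with the 3 NCD regions in blue, the 3 FFD regions in orange and the mean ± SD (n = 3) as a black bar, cut at 0 for Onecut1 in NCD. Hnf4a and Foxa3 lay lower in every FFD region than in any NCD region, Foxa2 lay higher, and Onecut1 was at 38.4 and 31.1 CPM in NCD 1 and NCD 2 but 246 in NCD 3.

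How far each factor stood above background differed widely and bounds what can be said. Hnf4a counts were 19.4 to 26.7 times the negative probe level over the 6 regions, and Cebpa counts were 13.7 to 25.9 times that level. Prox1 ranged from 4.57 to 7.30 times and Nr5a2 from 3.36 to 5.72 times the negative level. The 3 forkhead factors and Cebpb were the dimmest. Foxa1 lay between 2.33 and 4.66 times, Foxa3 between 2.28 and 3.39 times, and Cebpb between 1.49 and 3.50 times the negative level. Of the 9 factors, 7 were above the detection limit in all 6 regions, Cebpb was above it in 2 of 3 NCD regions, and Foxa2 in 0 of 3 NCD and 3 of 3 FFD regions. For the dim genes background makes up a large part of the count, which draws a fold change towards that of the background. The negative level over the upper quartile of counts was 0.241 to 0.264 in NCD and 0.172 to 0.206 in FFD. Relative to the scaling, background was thus lower in FFD, so the pull is towards a fall and not towards 0. Each factor was read by 1 probe, and probes differ in yield, so these heights do not rank the factors by transcript number.

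**Figure D2:**
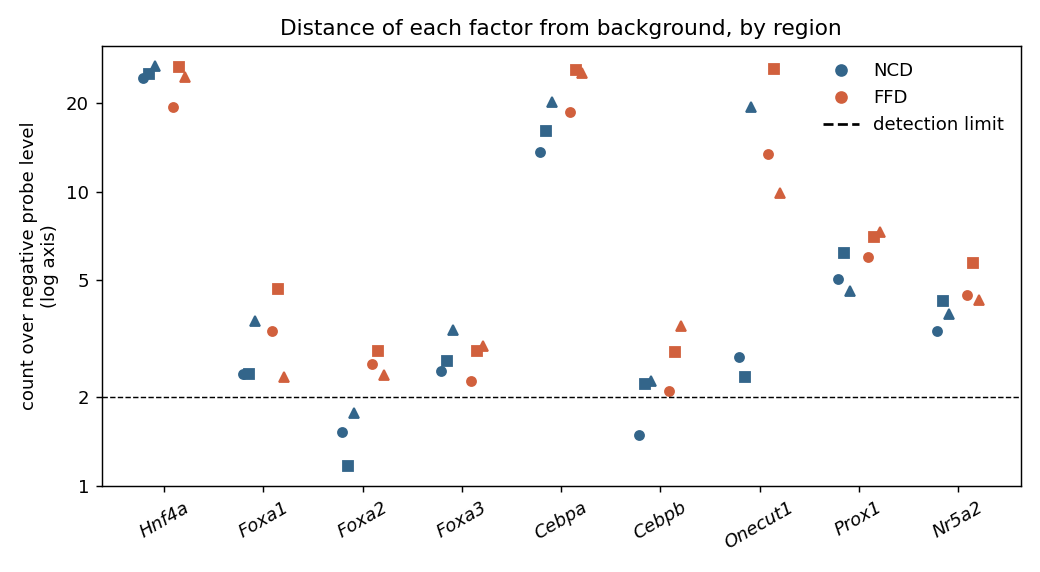
Count of each factor divided by the negative probe level of the same region, on a log axis, with NCD regions in blue, FFD regions in orange and the detection limit of 2 as a dashed line. Hnf4a and Cebpa stood more than 13 times above the negative level in each region, while Foxa2 lay under the limit in each NCD region and above it in each FFD region.

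Hnf4a encodes the nuclear receptor HNF4A, required for hepatocyte differentiation and for many apolipoprotein, bile acid and coagulation genes (gene ID 15378, GRCm38 chromosome 2, 163506811 to 163572907). In CPM, counts per library scaled to a common size, it was at 342, 334 and 341 in NCD regions 1 to 3 and at 211, 241 and 261 in FFD regions 1 to 3. The NCD regions were nearly level and each FFD region lay below all of them. The means were 339 ± 4.45 and 238 ± 25.2 CPM (SD, n = 3 per diet), a fall of 1.42-fold (log2 fold change -0.51, SE 0.14, 95% interval -0.80 to -0.21, edgeR adjusted p = 0.0207). Hnf4a was also among the most even genes in NCD, with 1.02-fold between its highest and lowest region. The median over all tested genes was 1.25-fold, and 0.955% of genes had a ratio as low as that of Hnf4a. Its NCD counts were 703, 793 and 1086, and a spread this small is within counting error and not read as a trait. The call depended on the setting. It was kept in 8 of 20 alternatives and lost in 12, with adjusted p from 0.0124 to 0.677. With NCD 1 and NCD 2 summed the change was -0.51 (adjusted p = 0.0654), and against FFD 3 alone it was -0.37 (adjusted p = 0.229). The scaling moved the median change of all genes from -0.11 under the upper quartile to -0.01 under TMM and 0.28 under negative probes. Relative to that median Hnf4a stood at -0.40, a difference that scaling leaves nearly fixed by construction and that is no further support.

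RefSeq places transcript starts of Hnf4a at separate promoters, and the sequences before the starts are shown because Hnf4a was the brighter of the 2 genes that fell. The deposited count does not separate transcripts from the different starts. Sequences are from RefSeq, build GRCm38.p6, plus strand, 5′ to 3′, ending before the annotated gene or start site, with capitals marking a match to a motif searched here. The upstream start is preceded by chr2:163506607-163506810, and the start further into the gene by chr2:163546905-163547154.
Hnf4a upstream start: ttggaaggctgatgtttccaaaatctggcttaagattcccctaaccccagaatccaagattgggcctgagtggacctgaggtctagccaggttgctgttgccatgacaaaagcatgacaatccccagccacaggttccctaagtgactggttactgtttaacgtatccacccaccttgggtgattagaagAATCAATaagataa
Hnf4a inner start: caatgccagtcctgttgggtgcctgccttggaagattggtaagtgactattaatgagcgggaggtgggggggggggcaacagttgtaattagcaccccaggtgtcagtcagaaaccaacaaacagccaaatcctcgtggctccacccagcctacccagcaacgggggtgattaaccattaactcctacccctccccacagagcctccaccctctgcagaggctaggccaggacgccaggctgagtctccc
Motifs of the network were searched on both strands in the 250 bases before each start. For HNF4 the letters were CAAAGTCCA and for C/EBP they were TTGCNNAA. The FOXA search used TGTTTAC and also TGTTTGC and also TATTTAC. ONECUT was searched as ATTGATT, NR5A2 as CAAGGTCA and also as CAAGGCCA, and HNF1 by its consensus motif. No matches of different motifs overlapped in the sequences shown. The upstream Hnf4a start held 1 ONECUT match, AATCAAT, a motif found before 2.61% of the 32817 starts searched. Over the 14 starts of the 9 factors, 2 held a FOXA match, 2 an ONECUT match, 1 a C/EBP match and 1 an HNF1 match. The shares among all starts were 9.72% for FOXA, 9.57% for C/EBP and 0.372% for HNF1. The HNF1 match lay before a start of Nr5a2. These matches describe the letters and were not tested as binding sites.

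The FOXA proteins share a forkhead DNA-binding domain and act as pioneer factors. Foxa3, whose product binds glucose and lipid genes of the liver (gene ID 15377, chromosome 7, 19013283 to 19023539), was at 34.5, 35.3 and 43.3 CPM in NCD and at 24.8, 26.2 and 31.7 CPM in FFD. Every FFD region lay under every NCD region, although FFD 3 came close. Over the negative level its diets overlapped, at 2.46, 2.66 and 3.39 times in NCD and 2.28, 2.88 and 2.97 times in FFD. The means were 37.7 ± 4.84 and 27.6 ± 3.67 CPM (SD, n = 3 each), with a log2 fold change of -0.47 (SE 0.15, 95% interval -0.80 to -0.14, edgeR adjusted p = 0.0475). That p was just under the threshold and was lost in 16 of 20 alternatives, with a range of 0.0291 to 0.770. It was 0.0694 with NCD 1 and NCD 2 summed. The 250 bases before its start, chr7:19023540-19023789 on the minus strand, are shown as the second of the genes that fell and held no match to the motifs.
Foxa3: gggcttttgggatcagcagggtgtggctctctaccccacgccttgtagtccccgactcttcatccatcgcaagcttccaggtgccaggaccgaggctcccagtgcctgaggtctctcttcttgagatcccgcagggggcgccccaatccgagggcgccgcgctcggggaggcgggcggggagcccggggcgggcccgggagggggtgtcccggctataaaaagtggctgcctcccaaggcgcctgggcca

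Foxa2, which in the liver takes part in bile acid and lipid gene control (gene ID 15376, chromosome 2, 148042877 to 148046969), was at 21.4, 15.6 and 22.6 CPM in NCD and at 28.2, 26.2 and 25.3 CPM in FFD. All FFD values were above all NCD values. The change was 0.41 (SE 0.17, 95% interval 0.04 to 0.77) with an unadjusted p of 0.0301 and an edgeR adjusted p of 0.108, so it was not called. It passed in 1 of 20 alternatives, with negative probe scaling (log2 0.80, adjusted p = 0.0025, range over the alternatives 0.0025 to 0.447). Because Foxa2 was under the detection limit in each NCD region, its NCD level is in large part background, and with the negative level subtracted the change was 1.21 (adjusted p = 0.106), computed with values under 1 count set to 1.

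Foxa1, which acts with Foxa2 at the onset of liver development (gene ID 15375, chromosome 12, 57540628 to 57548029), was at 33.5, 32.0 and 46.4 CPM in NCD and at 36.6, 42.4 and 24.9 CPM in FFD. The diets overlapped, with NCD 3 the highest region and FFD 3 the lowest. The change was -0.11 (95% interval -0.52 to 0.29, edgeR adjusted p = 0.712), and against FFD 3 alone it was -0.61 (adjusted p = 0.164). Within regions no ratio between FOXA genes passed a test. The log2 ratio of Foxa2 to Foxa3 was -0.69, -1.18 and -0.94 in NCD and 0.19, 0 and -0.33 in FFD. These did not overlap, a difference of 0.89 from means of -0.94 ± 0.25 and -0.05 ± 0.26 (SD, n = 3 each). By an exact permutation test (two-sided) p was 0.1, which is the lowest value possible with 3 regions per diet, and 0.25 after adjustment over 5 ratios. The ratio of Foxa1 to Foxa3 differed by 0.33 (exact permutation p = 0.4, n = 3 each) and that of Foxa1 to Foxa2 by -0.56 (exact permutation p = 0.2, n = 3 each). Foxa2 was under the detection limit in each NCD region, so its ratios there are largely ratios to background. With the negative level subtracted, the differences were 2.06 for Foxa2 to Foxa3 and -1.58 for Foxa1 to Foxa2 (exact permutation p = 0.1 for both, n = 3 each).

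**Figure D3:**
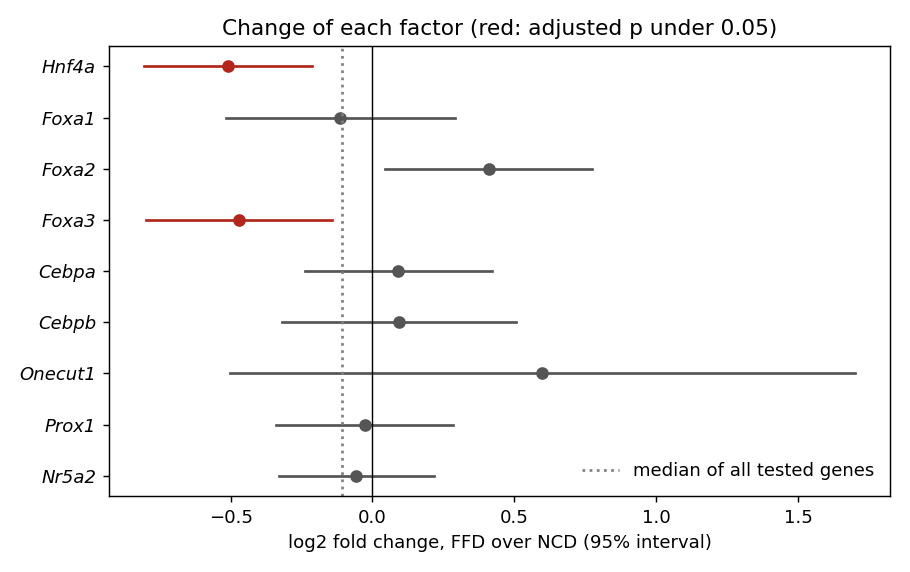
Log2 fold change of each factor, FFD over NCD, with its 95% interval from the edgeR fit, in red for the genes past an adjusted p of 0.05. The dotted line is the median of all tested genes at -0.11. Intervals of Cebpa, Cebpb, Foxa1, Prox1 and Nr5a2 cover 0, and that of Onecut1 runs from -0.50 to 1.70.

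The C/EBP genes did not separate the diets. Cebpa encodes C/EBP alpha, which drives genes of glucose and urea metabolism and holds hepatocytes out of the cell cycle (gene ID 12606, chromosome 7, 35119293 to 35121928). It was at 192, 214 and 257 CPM in NCD and at 203, 236 and 269 CPM in FFD. Values in the diets interleaved, and the change was 0.09 (SE 0.15, 95% interval -0.24 to 0.42, edgeR adjusted p = 0.720). Cebpb, the acute phase partner (gene ID 12608, chromosome 2, 167688915 to 167690432), was at 20.9, 29.4 and 28.8 CPM in NCD and at 22.9, 25.9 and 37.3 CPM in FFD. Its change was 0.09 (SE 0.19, 95% interval -0.32 to 0.51, adjusted p = 0.773). Background, lower in FFD relative to the scaling, draws that change and its interval towards a fall. With the negative level subtracted the change was 0.37 (edgeR adjusted p = 0.582). Against FFD 3 alone it was 0.48 for Cebpb and 0.28 for Cebpa, not called for either. The log2 ratio of Cebpb to Cebpa was -3.07 ± 0.18 in NCD and -3.06 ± 0.19 in FFD (SD, n = 3 each, exact permutation p = 0.7), and with background subtracted the difference was 0.41. It lay between -3.20 and -2.85 in all 6 regions, though a ratio of counts read by different probes is no ratio of transcripts. These are RNA levels, and the protein forms of C/EBP beta, which are made from 1 transcript, were not measured.

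Onecut1, also known as HNF6, takes part in hepatocyte and bile duct development and in adult glucose metabolism (gene ID 15379, chromosome 9, 74861921 to 74889648). It was at 38.4, 31.1 and 246 CPM in NCD regions 1 to 3, from 79, 74 and 785 counts. In FFD regions 1 to 3 it was at 146, 237 and 106 CPM, from 382, 761 and 263 counts. NCD 1 and NCD 2 were low, NCD 3 was the highest of all 6 regions, and the FFD regions lay in between. The ratio of the highest to the lowest region was 7.91 in NCD, the largest of all 13095 tested genes, where the median gene had 1.25. In FFD it was 2.25, a ratio reached by 155 genes, against a median of 1.26. The other 8 factors ranged from 1.02 to 1.45 in NCD and from 1.12 to 1.70 in FFD.

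**Figure D4:**
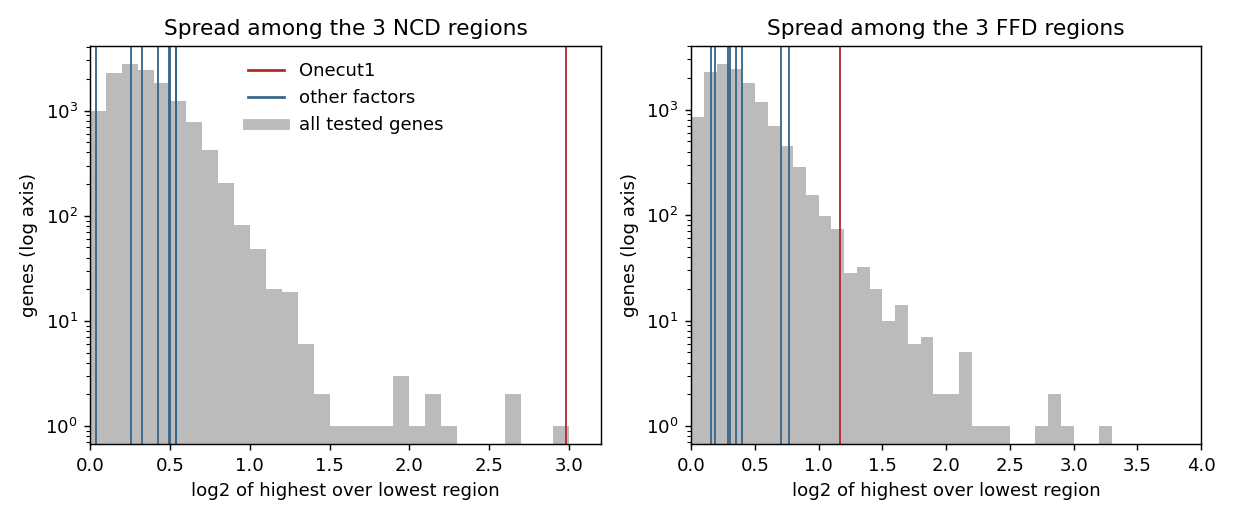
Distribution over the 13095 tested genes of the log2 ratio between the highest and the lowest region of a diet, with gene numbers on a log axis, for NCD on the left and FFD on the right. The red line is Onecut1, at the far right end of the NCD distribution, and the blue lines are the other 8 factors, of which Hnf4a is at the low end in NCD.

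The diet comparison of Onecut1 turned on NCD 3. Over all regions the change was 0.60 (SE 0.52, 95% interval -0.50 to 1.70, edgeR adjusted p = 0.445) and was not called. Without NCD 3 it was 2.24 (adjusted p = 0.000282), which compares FFD with the pair of NCD regions that were nearly alike. With NCD 1 and NCD 2 summed as 1 sample the change was 0.23 (adjusted p = 0.807). Against FFD 3 alone it was -0.04 (adjusted p = 0.980). NCD 1 and NCD 2 stood 2.74 and 2.34 times above the negative level and NCD 3 19.3 times. Albumin made up 7.74% of counts in NCD 3 against 5.65% and 6.05% in NCD 1 and NCD 2, and whether this has a part in the Onecut1 difference was not tested. The 250 bases before the Onecut1 start, chr9:74861671-74861920 on the plus strand, are shown for the gene with the widest NCD spread, and they held no match to the motifs searched.
Onecut1: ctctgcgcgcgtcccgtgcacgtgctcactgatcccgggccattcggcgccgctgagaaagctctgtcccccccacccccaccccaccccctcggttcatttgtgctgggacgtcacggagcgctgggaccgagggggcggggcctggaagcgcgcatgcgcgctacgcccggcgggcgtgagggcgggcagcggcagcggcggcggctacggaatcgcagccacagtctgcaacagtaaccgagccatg

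Prox1 and Nr5a2 had overlapping levels in the diets. Prox1, needed for hepatocyte migration in the embryo and also made by lymphatic endothelium (gene ID 19130, chromosome 1, 190118035 to 190170827), was at 70.5, 82.4 and 58.3 CPM in NCD and at 65.2, 63.6 and 77.9 CPM in FFD. Its change was -0.03 (SE 0.15, 95% interval -0.34 to 0.28, edgeR adjusted p = 0.921). Of 2 tested lymphatic endothelial markers Ccl21a fell, from 30.6, 27.3 and 20.7 CPM in NCD to 15.6, 13.1 and 15.7 in FFD (log2 -0.81, edgeR adjusted p = 0.00974), and Flt4 was not called (log2 0.20). Ccl21a was under the detection limit in each FFD region and was not above it in every NCD region. Flt4 was above the limit in all 6 regions. The part of these markers in the Prox1 level was not tested. Nr5a2, the receptor LRH-1 of bile acid and cholesterol transport genes (gene ID 26424, chromosome 1, 136842562 to 136960448), was at 47.2, 56.4 and 48.9 CPM in NCD and at 48.4, 52.1 and 45.8 CPM in FFD. Its change was -0.06 (SE 0.13, 95% interval -0.33 to 0.22, adjusted p = 0.797). The direction of both genes turned with the scaling, to 0.07 for Prox1 and 0.04 for Nr5a2 with TMM, so no direction is given for them. Within regions the log2 ratio of Nr5a2 to Hnf4a was -2.86, -2.57 and -2.80 in NCD and -2.13, -2.21 and -2.51 in FFD. The means differed by 0.46, FFD minus NCD, and the diets did not overlap (exact permutation p = 0.1, n = 3 each, adjusted p = 0.25).

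For the 7 factors above the detection limit in all 6 regions, the gene with the most similar pattern was the one with the smallest root mean square difference of centred log2 CPM over the 6 regions, among 6599 other genes that were above the limit. It was Crls1 for Hnf4a (difference 0.03), Cyp2j5 for Foxa3 (0.04), Arl1 for Cebpa (0.03), Rgn for Foxa1 (0.09), Gnl3l for Prox1 (0.05) and Mrs2 for Nr5a2 (0.05). Each is the smallest of 6599 differences over only 6 values, and no benchmark was computed. No link between the paired genes is read from it. Onecut1 had the least close neighbour of the 7 factors. The nearest, Phlda1, differed by 0.38, with 37.9, 38.3 and 240 CPM in NCD and 109, 132 and 72.7 CPM in FFD.

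Of 24 other transcription factors of the liver that were tested, 2 rose, 5 fell and 17 did not pass (median log2 change -0.08, against -0.11 for all tested genes). The shares over all tested genes, 5.94% higher and 11.1% lower, stand beside this and each list count that follows, and nothing particular to a list is read from its count. The repressor gene Bcl6 fell by 1.31 on the log2 scale, from 108 ± 25.5 to 43.4 ± 8.36 CPM (edgeR adjusted p = 0.000216). Zbtb20, a repressor of the fetal gene Afp, fell by 0.77 (SE 0.16, adjusted p = 0.00375). Klf15, of amino acid catabolism, fell by 0.58 (SE 0.16, adjusted p = 0.0226) and Gata4, an early endoderm factor, fell by 0.46 (SE 0.14, adjusted p = 0.0359). The calls of Klf15 and Gata4 were lost in 10 and 13 of 20 alternatives. Bcl6 kept its call in all 20 alternatives run, and Zbtb20 in 19. With NCD 1 and NCD 2 summed, the calls of Klf15, Gata4, Ddit3, Foxo1, Cyp7a1 and Sox4 were lost, the last 4 described below.

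Among 13 tested bZIP factors and regulators around the C/EBP genes, 0 rose and 2 fell (median -0.12). They were Cebpe, a C/EBP gene best known from granulocytes, which fell by 0.56 (SE 0.15, edgeR adjusted p = 0.0184), and Ddit3, the stress factor CHOP, which fell by 0.46 (SE 0.14, adjusted p = 0.0306). Of 14 cofactors 1 rose and 1 fell. Ppargc1b, a coactivator of nuclear receptors, fell by 0.73 (SE 0.19, adjusted p = 0.0174) and was above the detection limit in 2 of 3 NCD and 0 of 3 FFD regions. Foxo1, the insulin-controlled forkhead factor, rose by 0.42 (SE 0.14, adjusted p = 0.0488). The Foxo1, Ddit3 and Cebpe calls were lost in 12, 14 and 7 of 20 alternatives, and that of Ppargc1b in 8 of 19.

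**Figure D5:**
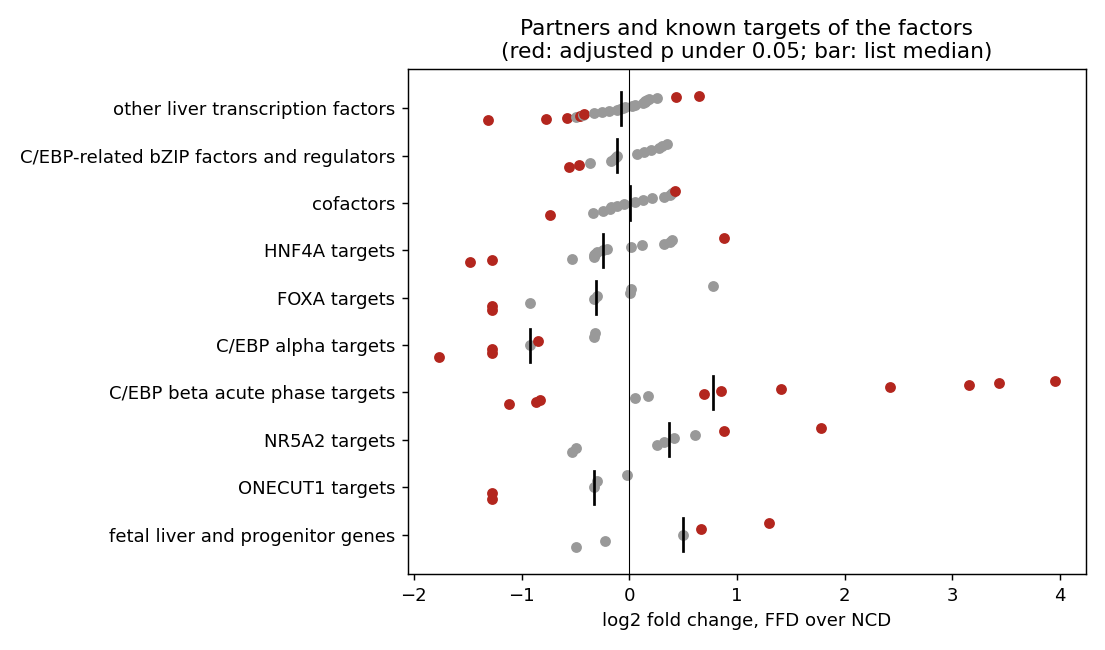
Log2 fold change, FFD over NCD, of each tested gene in 10 lists of partners and known targets of the factors, with genes past an adjusted p of 0.05 in red and the median of each list as a black bar. C/EBP beta acute phase targets run from -1.12 to 3.95, while C/EBP alpha targets all lie below 0.

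Known targets of the factors were listed from general knowledge, with earlier results of these data known. The lists share genes, so their counts are not separate. Of 15 HNF4A targets 1 rose, 2 fell and 12 did not pass (median -0.24). The bile acid importer Slc10a1 fell by 1.48, from 458 ± 82.4 to 164 ± 27.5 CPM (edgeR adjusted p = 4.05e-05), and G6pc, the glucose phosphatase, fell by 1.28 (SE 0.18, adjusted p = 0.000196). Cyp7a1, the rate-limiting enzyme of bile acid synthesis, rose by 0.88 (SE 0.27, adjusted p = 0.0349), a call lost in 10 of 20 alternatives. It was at 38.9, 48.4 and 62.7 CPM in NCD and at 62.9, 147 and 66.2 CPM in FFD. FFD 2 was thus far above the other regions, and FFD 1 and FFD 3 were close to NCD 3. With 1 region left out the change ranged from 0.35 to 1.09. The apolipoprotein genes Apoa2, Apoc3 and Apob stood at 0.02, 0.38 and 0.40 and were not called.

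Of 8 tested FOXA targets 0 rose and 2 fell (median -0.31), namely G6pc and Tat. Tat, the tyrosine aminotransferase, fell by 1.27 on the log2 scale (SE 0.21, edgeR adjusted p = 0.000949), from 1391 ± 266.5 to 575 ± 166 CPM. The same 2 genes were the fallen members among 5 ONECUT1 targets (0 higher, median -0.33). C/EBP alpha targets gave 0 higher and 4 lower of 7 (median -0.93), which were G6pc, Tat, the hepcidin gene Hamp and the urea cycle gene Cps1. Hamp fell by 1.77 (SE 0.33, adjusted p = 0.00209), with the call lost in 1 of 20 alternatives, and Cps1 fell by 0.85 (SE 0.25, adjusted p = 0.0331), with the call lost in 10. Alb itself, whose staining chose the regions, was at -0.93 (adjusted p = 0.0648). In the same FFD regions the summed level of 7 hepatocyte markers was 43573 to 71923 CPM, against 85958 to 122350 CPM in NCD. Alb made up most of that sum in each region, and of the 7 markers 0 were called higher and 5 lower. The marker list shares genes with the targets.

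The acute phase targets of C/EBP beta gave 7 higher and 3 lower of 12 (median 0.78). Cebpb itself was at 0.09, and at 0.37 with the negative level subtracted, with no call in either setting. Lcn2, a protein that binds bacterial iron carriers, rose by 3.95 on the log2 scale (SE 0.17, edgeR adjusted p = 8.18e-10) from a level under the detection limit in each NCD region. The amyloid genes Saa1 and Saa2 rose by 3.43 (SE 0.22, adjusted p = 7.75e-08) and 3.15 (SE 0.20, adjusted p = 7.75e-08), and the orosomucoid Orm2 by 2.42 (SE 0.17, adjusted p = 2.37e-07). The 3 that fell were the fibrinogen genes Fga, Fgb and Fgg, named after their values were seen. Of 8 NR5A2 targets 2 rose and 0 fell (median 0.37), and Cyp7a1, given above, was among those that rose.

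Fetal and progenitor genes, which are active in the fetal liver or in regeneration, were mostly outside the filtered table. Of 13 listed, 5 were tested, of which 2 rose and 0 fell (median 0.50). Cd24a, a progenitor surface protein, rose by 1.29 (SE 0.27, edgeR adjusted p = 0.00502) and Sox4, a factor of bile duct development, by 0.67 (SE 0.19, adjusted p = 0.0275). The Sox4 call was lost in 7 of 20 alternatives and that of Cd24a in 2. Cd24a was above the detection limit in 0 of 3 NCD regions and Sox4 in 1 of 3. The change of Cd24a was 0.24 against FFD 3 alone (adjusted p = 0.586), and that of Sox4 was 0.09 (0.850).

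Markers of other cells that the regions can hold moved with diet beside these results. Kupffer cell and macrophage markers were higher in 7 of 11 cases and lower in 1, and summed to 761 to 982 CPM in NCD and 1284 to 1663 in FFD. Stellate cell and fibroblast markers were higher in 6 of 9 and summed to 477 to 512 CPM in NCD and 853.5 to 1427 in FFD. Of 8 cholangiocyte markers 4 were tested, of which 2 were higher, and they summed to 96.3 to 129 CPM in NCD and 246 to 1047 in FFD. Most of that sum in FFD was Spp1, which other cells also make, at 30.1, 50.5 and 70.9 CPM in NCD and 830, 953 and 193 in FFD. Sox9 and Krt7, at log2 changes of 0.50 and -0.23, were not called. Krt19 and Epcam, which define cholangiocytes, were not in the filtered table, and Krt7 was above the detection limit in 1 of 3 regions of each diet. Neutrophil markers gave 0 higher and 1 lower of 5, lymphocyte markers 0 higher and 1 lower of 5, and endothelial markers 1 higher and 1 lower of 6. NCD regions held 1747 to 1940 nuclei and FFD regions 1077 to 1264. In such regions fewer hepatocytes and less of a transcript per hepatocyte cannot be told apart, and the part of the other cells in the Hnf4a and Foxa3 differences was not tested.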

How the data were processed

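The members and gene lists were chosen with earlier results of these data known. The deposited tables hold expected counts per target after the authors' probe quality control, whole for nearly all targets, and were rounded. The deposited Q3 signal was scaled by the authors to the upper quartile, per the labels. Nuclei, reads and probes per target are counts and sequencing saturation (99.1 to 99.3) is a percent, per the file headers. Area, slide position and limit of quantitation are other deposited quantities whose unit or formula is not stated. The submitters' processing notes name GRCm38 and edgeR, with neither role nor version. The aligner is not given in the sources used here.

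The test was edgeR 4.0.16 (glmQLFit, glmQLFTest, R 4.3.3) on the 13095 genes among the 13099 filtered targets, 4 being a negative probe or reporters, with upper quartile scaling (0.75), diet as the term and Benjamini-Hochberg adjustment. The code was also run on simulated counts, drawn independently for each region. That run does not cover regions that share a mouse. CPM came from edgeR's cpm function. SE is the absolute log2 change over the root of the F statistic, and intervals use the t distribution at 95%. Log2 fold changes are FFD over NCD. DESeq2 1.42.0 and limma 3.58.1 gave alternatives, as did other scalings, filters, background subtraction, leaving out regions and, added after seeing the data, NCD 1 and NCD 2 summed. Depth limits precision through 2069101 to 3491372 counts per region, and counting intervals cover counting error only. Named list genes were up to 4 per list with the smallest p past the threshold. The control library with no template was left out. Some list genes are not reported here by name.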

Additional observations from a re-analysis of the deposited data

How the results depend on the processing

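No paired analysis was possible because no label links a region of 1 diet to a region of the other. Alternatives were 20 per gene, and 19 for Ppargc1b, which the filter on the detection limit removed. With FFD 3 alone the spread comes from the NCD regions. The Hnf4a change lost its call at -0.41 with TMM, with DESeq2 size factors and with the DESeq2 Wald test, -0.11 with negative probe scaling, -0.45 without a filter and with filterByExpr, -0.37 against FFD 3 alone and -0.51 with NCD 1 and NCD 2 summed, and ranged from -0.58 to -0.43 when 1 region was left out. The Foxa3 change lost it at -0.37 with TMM, DESeq2 size factors and the Wald test, -0.35 with total counts, -0.080 with negative probes, -0.42 with limma on the Q3 signal, -0.41 without a filter and with filterByExpr, -0.61 with background subtracted, -0.26 with FFD 3 alone and -0.50 with NCD 1 and NCD 2 summed, and ranged from -0.58 to -0.35 with 1 region left out. Foxa2 gained a call at 0.80 with negative probes. Onecut1 was at -0.041 with FFD 3 alone and ranged from 0.18 to 2.24 with 1 region left out. The sign turned, with no call, for Foxa1 at 0.013 with total counts and 0.28 with negative probes (-0.30 to 0.10 with 1 region left out), for Cebpa (-0.012 to 0.22 with 1 region left out) and for Cebpb (-0.13 to 0.23). Prox1 turned to 0.073 with TMM, DESeq2 size factors and the Wald test, 0.076 with total counts, 0.36 with negative probes, 0.034 without a filter and with filterByExpr, 0.15 with FFD 3 alone and 0.014 with NCD 1 and NCD 2 summed (-0.16 to 0.10 with 1 region left out). Nr5a2 turned to 0.042 with TMM and DESeq2 size factors, 0.041 with the Wald test, 0.058 with total counts, 0.34 with negative probes and 0.0015 without a filter and with filterByExpr (-0.11 to 0.022 with 1 region left out).

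The number of factors called lower was 0 with TMM, DESeq2 size factors, negative probes, the Wald test, no filter, filterByExpr, FFD 3 alone and NCD 1 and NCD 2 summed, and 1 with total counts, limma on the Q3 signal and background subtraction. It ranged from 0 to 2 with 1 region left out, and the number called higher from 0 to 1, with 1 under negative probes. Over all genes, those called higher numbered 3632 with negative probes, 431 with FFD 3 alone and 511 with NCD 1 and NCD 2 summed (396 to 853 with 1 region left out). Those called lower numbered 893 with TMM, 894 with DESeq2 size factors, 604 with total counts, 206 with negative probes, 467 with the Wald test, 795 with background subtracted, 386 with FFD 3 alone and 914 with NCD 1 and NCD 2 summed (617 to 1778), against 778 higher and 1459 lower in the main setting. Over the genes of the 10 lists, 38 were higher with negative probes and 7 with NCD 1 and NCD 2 summed (7 to 14 with 1 region left out), against 14 in the main setting. Lower were 10 with TMM, DESeq2 size factors, total counts and the Wald test, 6 with negative probes and 8 with FFD 3 alone (7 to 16 with 1 region left out), against 16. The ratio of Cebpb to Cebpa turned sign when 1 region was left out (-0.097 to 0.115), and those of Foxa2 to Foxa3 and Nr5a2 to Hnf4a kept theirs in each alternative run, though not their size. With background subtracted the differences were 2.06 for Foxa2 to Foxa3, -1.58 for Foxa1 to Foxa2, 0.41 for Cebpb to Cebpa and 0.56 for Nr5a2 to Hnf4a. Against FFD 3 alone the changes were -0.61 for Foxa1, 0.28 for Cebpa and 0.48 for Cebpb, and with NCD 1 and NCD 2 summed 0.39 for Foxa2, none of them called. Of 54 values of the 9 factors, 50 lay above 2 times the negative level, 33 above 3 times it and 45 above the deposited limit of quantitation. Why calls were lost was not tested. Fits with fewer regions also have fewer degrees of freedom, and the part of this was not tested either.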

Other observations

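Onecut1 was the gene that set NCD 3 furthest apart from NCD 1 and NCD 2. Among 10837 genes above the detection limit in at least 1 region, ranked by the level in NCD 3 over the mean of NCD 1 and NCD 2, Onecut1 came first at 7.08-fold. Phlda1, an early response gene, followed at 6.31-fold, Cish, a feedback inhibitor of STAT5 signalling, at 4.24-fold and Alas1, which starts heme synthesis, at 4.14-fold. Gadd45g, a stress response gene, was at 4.13-fold and Aacs, which activates acetoacetate, at 3.89-fold. These 6 genes are the top of the ranking, and this ratio was chosen after the values were seen. Cish was at 19.9, 18.9 and 82.5 CPM in NCD regions 1 to 3 and at 49.2, 68.3 and 46.6 CPM in FFD. Alas1 was at 172, 166.5 and 701 CPM in NCD and at 668, 1266 and 976 CPM in FFD. For each of the 6 genes the FFD regions all lay above NCD 1 and NCD 2. The ranking itself favours genes that are low in NCD 1 and NCD 2. The share of all ranked genes with this order was not computed, so no likeness of NCD 3 to FFD is read from it. Over the same 3 NCD regions Hnf4a differed by 1.02-fold and Nr5a2 by 1.20-fold.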
